A study of Mus musculus with 9 samples.

Results

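The genes described here are those whose name on the array starts with Kcn, the root shared by the genes of potassium channels and their subunits. Of 84 such names (123 probes) on the array, 78 had a probe well above background in the DRG channel on at least 4 of 9 arrays, and the brightest such probe stood for each gene. They are 78 of the 21097 genes tested. All 78 names are still current gene symbols. Kcnq1ot1, a non-coding antisense RNA within the Kcnq1 gene, carries the root and was kept although it encodes no channel. Kcna3, Kcnj1, Kcnj2, Kcnj5, Kcnn3 and Kcnv2 were on the array and did not pass. Kcnk10 was listed under an older name without the root and was not counted (log2 fold change 0.08, limma adjusted p = 0.630).

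The samples were L3/L4 dorsal root ganglia (DRG) of adult mice labelled cre.neg and jun.wt (without Cre and with unaltered Jun), 4 of them uninjured and 5 taken 3 days after transection of the sciatic nerve. The labels and the methods give this time and these ganglia, while the text of the study's results names an earlier time and L4 DRG alone, so the time behind every fold change is not certain. Sex, strain and exact age were not given in the sources used here. The labels name no animals, so p-values measure only the spread between these samples, which may be technical in part, and the source label of the uninjured samples carries the same 3 days. The study's methods took contralateral ganglia as controls after nerve crush, and for the arrays name only uncrushed DRG. The uninjured samples may thus come from the injured mice, a pairing that the test between groups leaves out. Each DRG sample (Cy5) was hybridised beside a universal mouse reference RNA (Cy3) on a 2-colour array with no dye swap, so that a value is the log2 ratio of DRG over reference after background correction and loess. Levels of different genes are not compared, because each ratio depends on its own probe and on the reference.

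The arrays lay on 3 slides, with 3 uninjured arrays on slide 1, uninjured array 1 beside injured arrays 1, 2 and 5 on slide 2, and injured arrays 3 and 4 on slide 3. Slide and injury therefore overlap in large part. In Cy5, the share of spots above background was 71.0% to 78.9%, the median Cy5 signal ranged from 156.3 to 237.8, and the number of arrays limits the precision. Atf3, a transcription factor induced in axotomized neurons, had log2 ratios of at least 4.03 on the injured arrays and at most −0.90 on the uninjured ones, a log2 fold change of 5.14 (limma adjusted p = 2.73e-11).

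Potassium channels let potassium leave the cell and so hold the resting potential, end the action potential and set how often a neuron fires. Voltage-gated channels (Kcna to Kcnd, Kcnh and Kcnq) open on depolarization, inward rectifiers (Kcnj) conduct near rest, tandem-pore channels (Kcnk) carry the background leak, and the Kcnm, Kcnn and Kcnt groups respond to intracellular calcium or sodium. Sensory neurons express many of them, and loss of potassium current is a known feature of their raised excitability after nerve damage.

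Of the 78 genes, 38 (48.7%) passed limma's test between the groups, with an adjusted p under 0.05, where 25.4% of all genes tested were called. With Agilent's own log ratio 21 were called (26.9%, against 21.3% of all genes), and with slide as a fixed block 14 (17.9%, against 5.61%). The balance was uneven. Lower levels after injury were called in 34 (43.6%, against 14% of all genes) and higher levels in 4 (5.13%, against 11.4%), of which 1, Kcnk16, passed the filter on dim probes only through the injured arrays. The 34 spanned log2 fold changes from −1.24 to −0.21, and 19 of them fell by more than 1.5-fold, a size and direction called in 2.59% of all genes. In 32 of the 78, or 41.0%, no injured array overlapped an uninjured one, against 23.9% of all genes. The 12 falls given array by array below were chosen among such genes, so their lack of overlap was fixed by that choice. The median log2 fold change was −0.23 for these genes and 0.00 for all genes tested. Of the 40 not called, 28 lay below 0 and 12 above, between −0.47 and 0.36. The counts by subfamily below are small and stand beside the same shares of all genes (25.4% called, 14% lower and 11.4% higher). No test compared a subfamily with those shares.

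**Figure D1:**
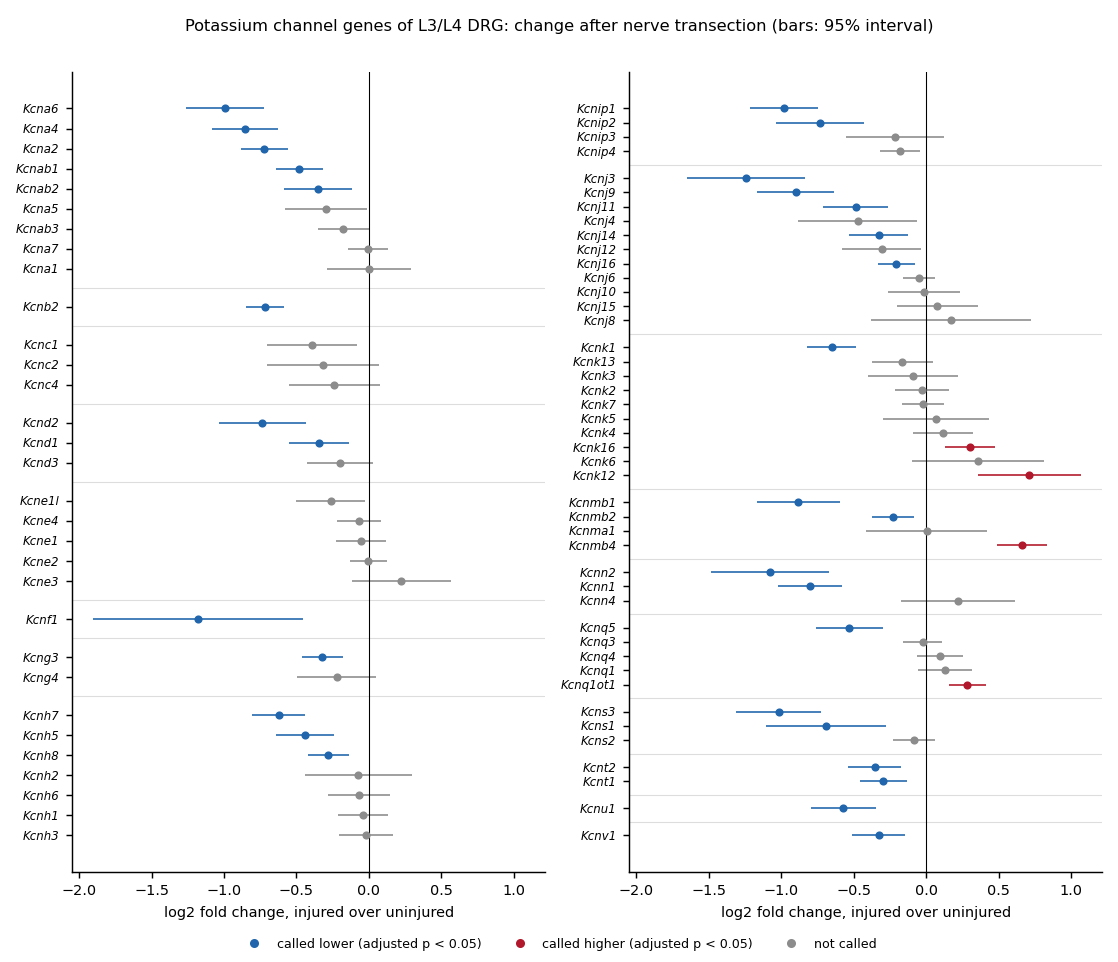
Log2 fold change (injured over uninjured) of 75 of the 78 genes, grouped by subfamily, with its 95% interval, blue where called lower, red where called higher and grey where not called. Of the 36 called genes shown, 32 lie left of 0, and the 4 to its right are Kcnk12, Kcnmb4, Kcnk16 and Kcnq1ot1. The point of Kcnk16 is not read as a fold change, because its uninjured level has only a bound.

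The distribution as a whole lay towards lower values. Log2 fold changes below −0.5 were found in 21 of the 78 genes (26.9%) and in 4.12% of all genes tested. The injured arrays lay close to each other in this respect. The median of the 78 genes against their uninjured means lay between −0.30 and −0.18 on the 5 injured arrays and between −0.02 and 0.03 on the 4 uninjured arrays.

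**Figure D2:**
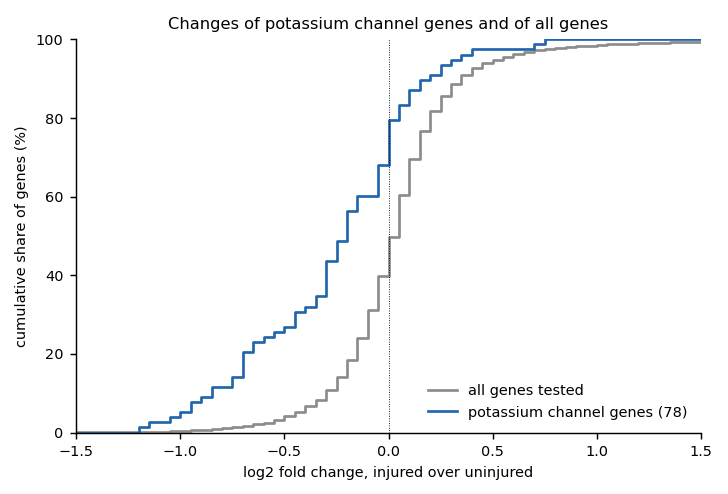
Cumulative share of genes (percent) against the log2 fold change, injured over uninjured, in steps of 0.05, for the 78 potassium channel genes (blue) and all 21097 genes tested (grey). The blue curve lies left of the grey one over most of the range, with 26.9% of potassium channel genes and 4.12% of all genes below −0.5.

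Among the Shaker-type channels and their cytoplasmic beta subunits (Kcna and Kcnab), 5 of 9 were called and all 5 were lower. Kcna2, a delayed rectifier alpha subunit placed beside the nodes of myelinated axons, had log2 ratios of 2.63, 2.38, 2.46 and 2.60 on uninjured arrays 1 to 4 and 1.81, 1.83, 1.91, 1.67 and 1.74 on injured arrays 1 to 5. Every injured array was below every uninjured one (log2 fold change −0.72, standard error 0.0737, limma adjusted p = 7.11e-05), or 60.7% of the uninjured level. Kcna4, which forms fast-inactivating A-type channels, measured 3.27, 3.20, 3.15 and 3.35 on uninjured arrays 1 to 4 and 2.60, 2.29, 2.58, 2.37 and 2.10 on injured arrays 1 to 5. Its groups did not overlap either (log2 fold change −0.85, standard error 0.103, limma adjusted p = 0.000208). Kcna6, another delayed rectifier subunit, gave 4.08, 4.04, 4.09 and 3.85 on uninjured arrays 1 to 4 and 3.19, 3.38, 2.79, 2.90 and 2.84 on injured arrays 1 to 5. Both groups again lay apart, injured array 2 being the nearest to the uninjured ones (log2 fold change −0.99, standard error 0.122, limma adjusted p = 0.000232). With Agilent's own log ratio in place of normexp and loess, Kcna2 was at −0.25 (limma adjusted p = 0.450) and Kcna6 at −0.60 (limma adjusted p = 0.392), and Kcna6 also just missed the threshold with an offset of 0 (limma adjusted p = 0.0505).

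The beta subunits Kcnab1 (−0.48) and Kcnab2 (−0.35) were lower as well. Without uninjured array 2 or 4 or injured array 2, 3 or 4, Kcnab2 lost its call (limma adjusted p up to 0.0991). Kcna1, the partner of Kcna2 in the channels beside the node, was at 0.00 (95% interval −0.29 to 0.29). In Kcna5, the largest change among those of this group that were not called, the log2 fold change was −0.30 (limma adjusted p = 0.119).

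Kcnb2, a delayed rectifier of the Shab type, fell by 0.72 on the log2 scale (standard error 0.0582, limma adjusted p = 1.46e-05), with no overlap between groups.

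The subunits that carry no current alone and modify Kcnb channels were lower in most cases. Of the 7 genes of this kind (Kcnf, Kcng, Kcns and Kcnv), 5 were called and all were lower. Kcns3 had log2 ratios of 5.53, 5.13, 5.73 and 5.39 on uninjured arrays 1 to 4 and 4.79, 4.32, 4.39, 4.37 and 4.28 on injured arrays 1 to 5. Injured array 1 stood above the other injured arrays, yet below all uninjured ones (log2 fold change −1.02, standard error 0.133, limma adjusted p = 0.00033), and Agilent's ratio gave −0.32 (limma adjusted p = 0.445). Kcnf1 went from 2.42 ± 0.716 (SD, n = 4) to 1.24 ± 0.474 (SD, n = 5), a large but uneven change with overlapping groups (log2 fold change −1.18, limma adjusted p = 0.0234). Leaving out uninjured array 1, 2 or 4 removed the call of Kcnf1 (limma adjusted p up to 0.0742), and the same 3 omissions removed that of Kcns1 (−0.69, limma adjusted p up to 0.0593). Kcng3 (−0.32) and Kcnv1 (−0.33) were also called, while Kcng4, at −0.22, and Kcns2 were not.

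In the Shaw type, whose fast channels allow high firing rates, Kcnc1 was at −0.39 by its brightest probe (limma adjusted p = 0.0637), whereas its other 2 probes, at −0.64 and −0.49, were both called lower. Kcnc2 (−0.32, limma adjusted p = 0.222) and Kcnc4 (−0.24, limma adjusted p = 0.255) were not called.

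The A-type channels of the Shal type and their calcium-binding subunits, the KChIPs, were lower in part. Of 3 Kcnd genes, 2 were called, and of 4 Kcnip genes, 2. Kcnd2, a pore-forming A-type subunit, had log2 ratios of 2.12, 1.36, 1.75 and 1.77 on uninjured arrays 1 to 4 and 1.16, 1.03, 0.78, 1.15 and 0.95 on injured arrays 1 to 5. Uninjured array 2 and injured array 1 came closest to each other without overlap (log2 fold change −0.74, standard error 0.137, limma adjusted p = 0.00296). With an offset of 0 it missed the threshold (−1.05, limma adjusted p = 0.0558), and Agilent's ratio gave −1.78. Kcnd1 was lower by less (log2 fold change −0.34) and lost its call without uninjured array 1 or 2 or injured array 2 (limma adjusted p up to 0.0715).

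Kcnip1 measured 3.72, 3.68, 3.67 and 3.67 on uninjured arrays 1 to 4 and 2.79, 2.85, 2.45, 2.97 and 2.48 on injured arrays 1 to 5. Its 4 uninjured values were close together, above the injured ones (log2 fold change −0.98, standard error 0.107, limma adjusted p = 0.000107). For Kcnip2 the log2 ratios were 2.83, 2.42, 2.39 and 2.62 on uninjured arrays 1 to 4 and 1.82, 1.94, 2.20, 1.59 and 1.62 on injured arrays 1 to 5. Injured array 3 was the highest of its group and still below all uninjured arrays (log2 fold change −0.73, standard error 0.136, limma adjusted p = 0.00295), and Agilent's ratio gave −0.46 (limma adjusted p = 0.285). Kcnip3, at −0.21, was not called by its brightest probe although a second probe was (−0.40). Dpp10, whose product joins Kcnd and Kcnip proteins in the same channel complex, was at −0.75 (limma adjusted p = 0.00399), and its relative Dpp6 at −0.01 was not called.

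The other voltage-gated groups changed less. In the Kcnh group (EAG, ERG and ELK channels), 3 of 7 were lower, namely Kcnh7 (−0.62), Kcnh5 (−0.44) and Kcnh8 (−0.28), and the other 4 lay between −0.07 and −0.02. In the Kcnq group, which carries the M-current that restrains repetitive firing, Kcnq5 was lower (log2 fold change −0.53, standard error 0.104, limma adjusted p = 0.00393), with a second probe at −0.16 that was not called. Kcnq3 was at −0.03 (95% interval −0.16 to 0.11) and was not called. Its probe was well above background on only 3 uninjured and 4 injured arrays, so this value does not show that Kcnq3 stayed level. None of the 5 Kcne genes, which encode small membrane subunits that modify other channels, was called by limma, and 1, Kcne1l (−0.27), had an unadjusted p under 0.05.

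Inward rectifiers held the largest fall. Of 11 Kcnj genes, 5 were called, all lower. Kcnj3, a subunit of channels opened by G-protein-coupled receptors, had log2 ratios of 2.53, 2.51, 2.68 and 2.44 on uninjured arrays 1 to 4 and 1.84, 1.42, 1.35, 1.21 and 0.68 on injured arrays 1 to 5. Injured array 5 was the lowest by far, but even injured array 1, the highest, lay under the lowest uninjured array (log2 fold change −1.24, standard error 0.184, limma adjusted p = 0.000754), which leaves 42.3% of the uninjured level. A second probe for Kcnj3 was also called, with a smaller log2 fold change of −0.44. Kcnj9, another subunit of the same G-protein-gated channels, gave 1.79, 2.004, 2.08 and 2.27 on uninjured arrays 1 to 4 and 1.26, 1.15, 0.80, 1.15 and 1.32 on injured arrays 1 to 5. All injured arrays were lower (log2 fold change −0.90, standard error 0.119, limma adjusted p = 0.000356), and within slide 2 the difference was −0.55 (limma adjusted p = 0.0932).

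Kcnj6, the remaining gene of those G-protein-gated channels that passed, was at −0.05 (95% interval −0.16 to 0.06). Its probe was well above background on 4 uninjured and 4 injured arrays but not on every array, and another probe for it on 0 arrays. A change can be missed by a probe this dim, so the narrow interval does not show that Kcnj6 stayed level. Kcnj11, the pore of channels closed by ATP, was at −0.49, and Abcc8, the sulphonylurea receptor that completes that channel, at −0.43 (limma adjusted p = 0.0132). Smaller falls were those of Kcnj14 (−0.33), which was not called without uninjured array 2 or injured array 3 (limma adjusted p up to 0.0640), and Kcnj16 (−0.21), not called without uninjured array 1 or 4 or injured array 4 (limma adjusted p up to 0.0778). Kcnj10, the inward rectifier of satellite glia, was at −0.02 (95% interval −0.26 to 0.23). The largest change not called was that of Kcnj4 (−0.47, limma adjusted p = 0.0886), and a second probe for it was at −0.02.

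Calcium-activated channels of small conductance, which follow a spike with a hyperpolarization, were lower in 2 of 3 Kcnn genes. Kcnn2 had log2 ratios of 4.61, 4.46, 4.47 and 4.44 on uninjured arrays 1 to 4 and 3.60, 3.93, 3.62, 3.01 and 2.94 on injured arrays 1 to 5. The uninjured arrays lay close together, and the injured ones were spread from 2.94 to 3.93 beneath them (log2 fold change −1.08, standard error 0.185, limma adjusted p = 0.0018). Agilent's ratio gave −0.31 (limma adjusted p = 0.232) for the same probe, and a second probe was lower at −0.71. Kcnn1 gave 2.74, 2.82, 2.59 and 2.70 on uninjured arrays 1 to 4 and 2.12, 1.67, 2.11, 1.82 and 1.84 on injured arrays 1 to 5. No injured array reached the uninjured range (log2 fold change −0.80, standard error 0.0994, limma adjusted p = 0.000246). Kcnn4, of intermediate conductance and known from blood cells, was at 0.22 and was not called.

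The auxiliary beta subunits of the large-conductance (BK) channel moved in opposite directions. The pore gene Kcnma1 was at 0.00 (95% interval −0.41 to 0.42). Kcnmb1, which raises the calcium sensitivity of the channel and is known from smooth muscle, measured 2.51, 2.56, 2.46 and 2.24 on uninjured arrays 1 to 4 and 1.93, 1.55, 1.63, 1.52 and 1.19 on injured arrays 1 to 5. Both groups lay apart (log2 fold change −0.88, standard error 0.129, limma adjusted p = 0.000706). Kcnmb4, the beta subunit known from neurons, gave 4.35, 4.22, 4.24 and 4.196 on uninjured arrays 1 to 4 and 4.90, 5.06, 4.90, 5.001 and 4.70 on injured arrays 1 to 5. Here every injured array was higher than every uninjured one (log2 fold change 0.66, standard error 0.0766, limma adjusted p = 0.000158), at 158% of the uninjured level. Kcnmb2 was slightly lower (−0.23) and was not called without uninjured array 1 or 3 or injured array 1 (limma adjusted p up to 0.0846).

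Both sodium-activated channels were lower by a small amount, Kcnt2 at −0.36 and Kcnt1 at −0.30 on the log2 scale, and the 3 probes of Kcnt1 were all called lower. Kcnu1, related to the BK pore and known from sperm, was at −0.57 with no overlap of groups.

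Tandem-pore leak channels held 2 of the 4 rises. Of 10 Kcnk genes, 1 was lower and 2 were higher. Kcnk1 fell by 0.65 on the log2 scale (standard error 0.0754, limma adjusted p = 0.000157). Kcnk12, which gives no current of its own in most assays, had log2 ratios of 1.52, 2.05, 1.62 and 1.28 on uninjured arrays 1 to 4 and 2.48, 2.30, 1.996, 2.24 and 2.63 on injured arrays 1 to 5. Uninjured array 2 exceeded injured array 3, so the groups overlapped (log2 fold change 0.71, standard error 0.16, limma adjusted p = 0.0083), and with all spots in the background fit it was not called (limma adjusted p = 0.0867). Kcnk16 gave −0.04, 0.00, 0.01 and 0.19 on uninjured arrays 1 to 4 and 0.44, 0.39, 0.38, 0.37 and 0.14 on injured arrays 1 to 5. Its probe was not well above background on any uninjured array and was so on 4 of 5 injured arrays, so it passed the filter only through the group where it was higher, and its uninjured level has only a bound. No fold change is therefore given, and its limma adjusted p of 0.0148 supports nothing on its own. It was not called without uninjured array 1 (limma adjusted p = 0.0509) or with all spots in the background fit (limma adjusted p = 0.0722). The largest change not called in this group was that of Kcnk6 (0.36).

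The non-coding Kcnq1ot1 was the remaining rise, with log2 ratios of −0.54, −0.66, −0.45 and −0.54 on uninjured arrays 1 to 4 and −0.31, −0.24, −0.29, −0.28 and −0.19 on injured arrays 1 to 5. The groups did not overlap (log2 fold change 0.29, standard error 0.0585, limma adjusted p = 0.00508), but median centring in place of loess gave 0.20 (limma adjusted p = 0.293). Kcnq1 itself was at 0.13 and was not called. Exact permutation (two-sided) over every way to divide the 9 arrays has a smallest possible p of 0.00794. That value was found for Kcnmb4, Kcnq1ot1 and 10 of the 12 falls given array by array. The permutation p was 0.0159 for Kcnn2 and Kcnip2, and 0.0238 for Kcnk12. A gene without overlap of its groups can only reach 0.00794 or 0.0159 in this permutation test. The 12 falls were chosen for that lack of overlap, so their permutation p gives no further support.

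**Figure D3:**
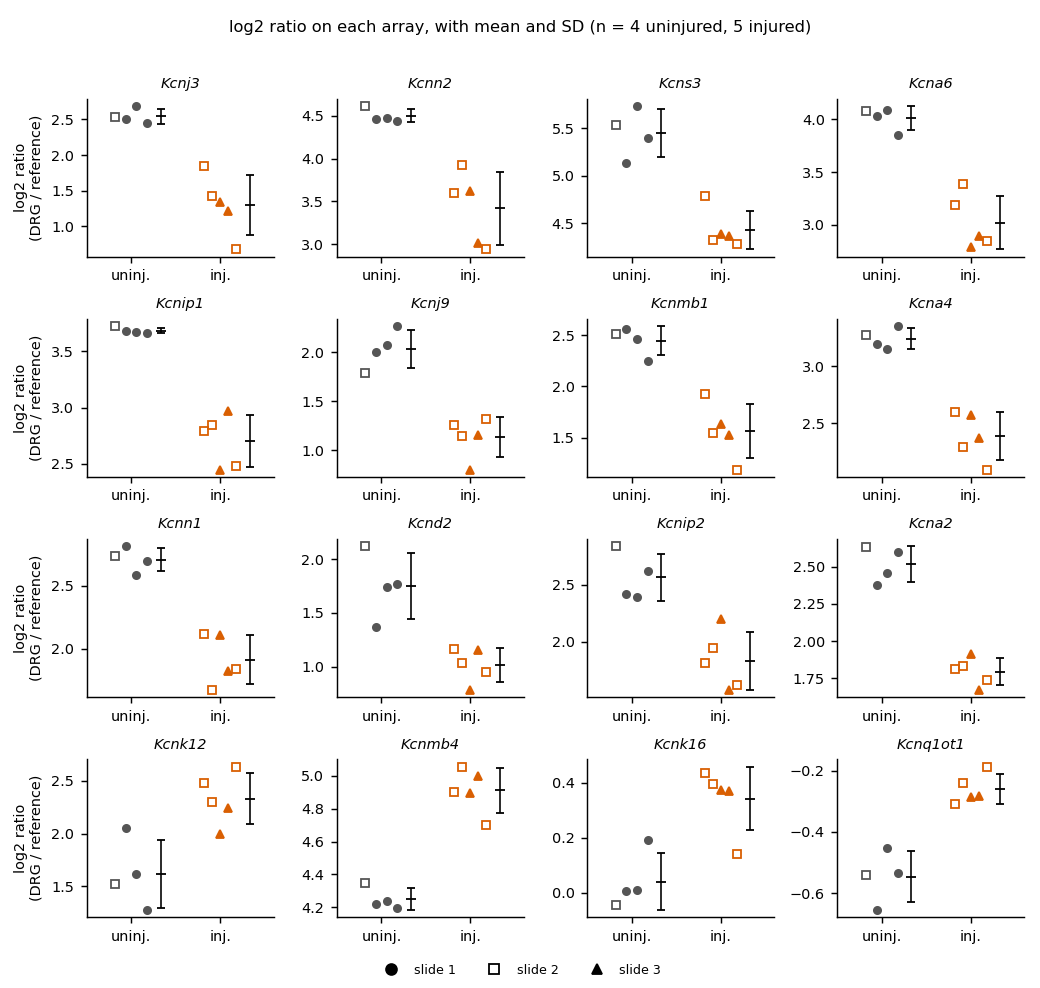
Log2 ratio of DRG over reference on each array (grey uninjured, orange injured, marker shape by slide) for the 16 genes given array by array, with group mean and SD (n = 4 and 5) beside the points. Each panel has its own axis, and the groups overlap in Kcnk12 and Kcnk16. Injured points lie below all uninjured points in the first 12 panels, whose genes were chosen for that lack of overlap.

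Several genes had more than 1 probe above background, which gave a check within the array. Of 27 such genes, 26 had the same sign in all probes, the exception being Kcnk7 with values near 0. Among the 14 called genes with several probes, all probes pointed the same way in 14 and another probe was itself called in the same direction in 12. The shares over all genes with several probes were not worked out, so these counts have no background to stand beside. Probes of a gene read the same samples on the same arrays, so they do not test differences between samples or slides. The sizes differed between probes of the same gene, as given above for Kcnj3. Another probe gave a smaller fall than the brightest one for Kcnj9 (−0.48), Kcnd2 (−0.45), Kcnh7 (−0.30), Kcnab1 (−0.25) and Kcng3 (−0.22). For Kcnj16, Kcnt1, Kcnt2 and Kcnv1 the fall was instead slightly larger by another probe.

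Because slides 1 and 3 each held a single group, a fit with slide as a fixed block compares uninjured array 1 with injured arrays 1, 2 and 5. In that fit 14 of the 78 genes were called, all of them lower and all called without the block too. They included Kcna2, Kcna4, Kcna6, Kcnab1, Kcnb2, Kcnd2, Kcnh7, Kcnip1, Kcnip2, Kcnk1, Kcnn1, Kcns3 and Kcnu1. Kcnj3 kept its size (−1.22) but not its call (limma adjusted p = 0.0893), as did Kcnn2 (−1.12, limma adjusted p = 0.102) and Kcnmb1 (−0.96, limma adjusted p = 0.0632). The 3 rises that were above background in both groups stayed above 0, at 0.54 for Kcnmb4, 0.95 for Kcnk12 and 0.30 for Kcnq1ot1. No rise was called in that fit. Among the other called genes, slide in the fit moved the log2 fold change by over 1.5 times for Kcnf1 (−1.97), Kcnj9 (−0.55), Kcnj11 (−0.19), Kcnab2 (−0.10) and Kcnv1 (−0.14), and none of the 38 changed sign.

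**Figure D4:**
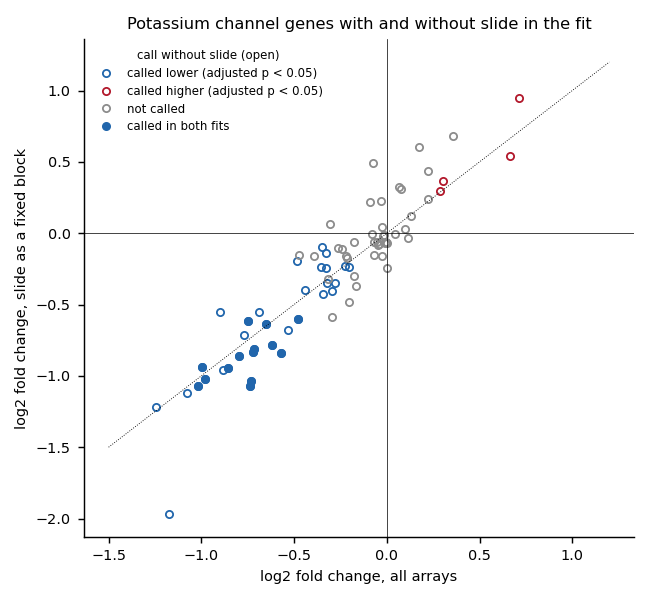
Log2 fold change with slide as a fixed block against that without it, for the 78 genes, open points coloured by the call without slide and filled points called in both fits. The dotted line marks equality, the 14 filled points all lie below 0, and no blue or red point crosses 0. The red points include Kcnk16, whose uninjured level has only a bound and whose point is not read as a fold change.

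The partners of potassium channels were counted in the same way. In a list of 32 genes whose products bind, place, anchor or regulate these channels or carry the related HCN current, 23 were tested, 6 were lower and 1 was higher (30.4% called, against 25.4% of all genes, with a median log2 fold change of −0.10). The contactin-associated protein Cntnap2, which holds Kcna channels beside the node, was at −0.37 (limma adjusted p = 0.00532), and Epb4.1l3, a cytoskeletal link at that site, at −0.31. Amigo1, an auxiliary protein of Kcnb channels, was at −0.34, and the ubiquitin ligase Nedd4l, which removes channels from the membrane, at −0.51. Rest, a repressor that binds many neuronal genes including potassium channel genes, was higher (0.28, limma adjusted p = 0.0298). None of the 4 Hcn genes was called by limma, none had an unadjusted p under 0.05, and they lay between −0.17 and 0.08. With slide as a fixed block, none of the 7 partner genes was called.

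In whole ganglia, fewer cells of a type and less RNA per cell cannot be told apart. Of 19 sensory neuron markers tested, 4 were lower (Scn9a −0.54, Isl1 −0.49, Scn11a −0.45 and Elavl4 −0.28), none was higher, and the median was −0.07. The mean of this list against its uninjured mean lay between −0.29 and 0.07 on the injured arrays, a range that overlaps that of the median of the 78 potassium channel genes (−0.30 to −0.18). Satellite glia markers were higher in 2 of 9 and lower in none (median 0.06). Macrophage markers were higher in 4 of 14 and lower in none (median 0.68). Among all genes tested, 14% were called lower and 11.4% higher. These marker lists and those below are short, and no test compared their counts with those shares.

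Other tissues moved unevenly between arrays. Skeletal muscle markers stood 1.76 above their uninjured mean on injured array 2 and 3.26 on injured array 4, and 1 of 12 was called higher. Red blood cell markers (4 tested) and myelinating Schwann cell markers (10 tested) held no call by limma, with 3 and 2 unadjusted p under 0.05 in turn, and vessel (11) and dividing cell (8) markers held 1 rise each. On injured arrays 1 and 3, where muscle markers were at 0.03 and −0.06 and red blood cell markers at −0.06 and 0.15, the median of the 78 potassium channel genes was −0.18 and −0.30. Sensory neuron markers were lowest on these same arrays, at −0.29 and −0.23. The parts of neuron number and of muscle or blood content in the falls were not tested.

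**Figure D5:**
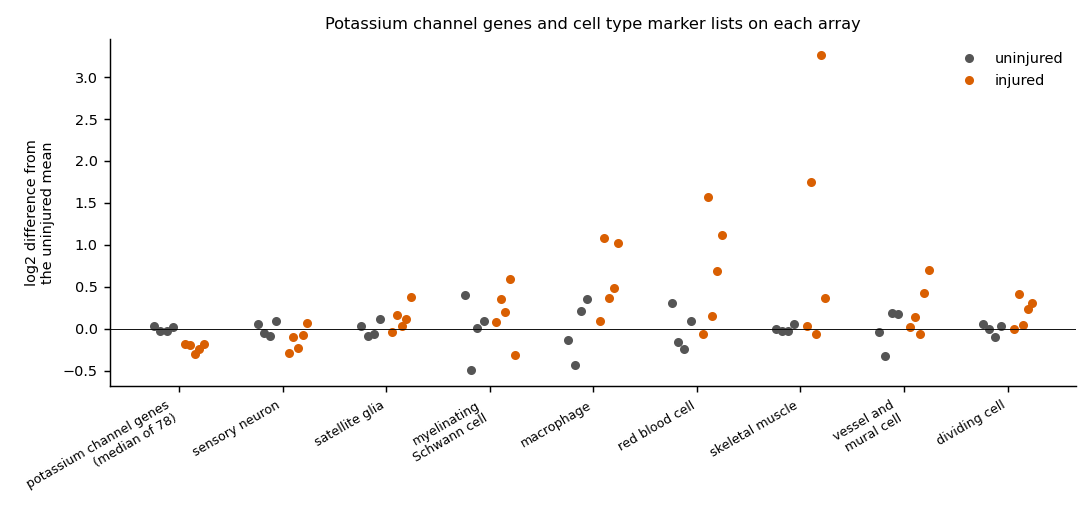
Log2 difference of each array from the uninjured mean for the median of the 78 potassium channel genes and for the mean of each cell type marker list (grey uninjured, orange injured). Potassium channel medians are between −0.30 and −0.18 on all injured arrays, and skeletal muscle markers are raised on injured arrays 2 and 4.

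The reference channel served as a control, since the same RNA was on every array. There limma called 33 of 21097 genes between the injured and uninjured arrays and none of the 78 potassium channel genes. An unadjusted p under 0.05 was nonetheless more frequent among them, at 15 of 78 (19.2%), than among all genes, at 2026 of 21097 (9.6%). With the Cy5 channel alone, which leaves the reference out, 39 of the 78 were called (50%, against 23% of all genes). Of these, 35 were lower (44.9% of the 78, against 13.3% of all genes).

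RefSeq promoter windows (build GRCm38.p6) were found for 57 of the 78 genes, 24 of them called lower, 4 higher and 29 not called, and the 250 bases before each start were searched on both strands, a gene with several starts counting once if any of its windows held the motif. A GC box (GGGCGG) was present in 58.3% of the genes called lower, 2 of the 4 called higher and 65.5% of those not called, against 35.4% of all 27025 genes with a window. The AP-1 motif TGACTCA, bound by c-Jun, was in none of the 24 lower or 4 higher genes, in 2 of the 29 not called and in 5.16% of all genes. The stretch TTCAGCACC of the element that Rest binds was in 1 of the 57 and in 0.348% of all. The cyclic AMP element TGACGTCA was in none of the 57 (1.77% of all), and the E-box CACGTG in 1 lower gene, no higher gene and 2 not called (6.86% of all). Each motif was searched on its own, so that matches of different motifs could overlap, and a match is a description only. A few windows are printed, since their genes include the clearest rise (Kcnmb4) and its counterpart in the same subunit family (Kcnmb1), beside Kcna4, a fall that no alternative removed, with GC boxes on either strand in capitals.

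Kcnmb4 (chr10:116473524-116473773, minus strand, 83.6% G or C, 4 GC boxes):
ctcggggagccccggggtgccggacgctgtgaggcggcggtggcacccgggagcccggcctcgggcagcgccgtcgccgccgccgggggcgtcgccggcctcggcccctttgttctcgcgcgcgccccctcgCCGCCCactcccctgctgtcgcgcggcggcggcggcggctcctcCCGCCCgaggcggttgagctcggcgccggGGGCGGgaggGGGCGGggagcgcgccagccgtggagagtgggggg
Kcnmb1 (chr11:33962763-33963012, plus strand, 50.8% G or C, no GC box):
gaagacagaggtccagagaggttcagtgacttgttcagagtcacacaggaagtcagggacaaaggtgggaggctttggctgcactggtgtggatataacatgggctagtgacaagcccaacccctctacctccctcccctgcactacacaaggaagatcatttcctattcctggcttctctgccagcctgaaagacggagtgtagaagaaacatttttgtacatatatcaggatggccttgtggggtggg
Kcna4 (chr2:107290339-107290588, plus strand, 65.2% G or C, 1 GC box):
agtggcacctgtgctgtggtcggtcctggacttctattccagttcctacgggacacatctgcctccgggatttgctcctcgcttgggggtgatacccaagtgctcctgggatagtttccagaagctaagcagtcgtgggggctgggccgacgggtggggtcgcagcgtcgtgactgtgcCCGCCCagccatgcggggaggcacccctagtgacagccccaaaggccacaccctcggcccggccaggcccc

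Probe positions, as listed in the files on mouse build mm7, were chromosome 2 from 55598012 to 55598071 for Kcnj3, chromosome 12 from 11154830 to 11154889 for Kcns3, chromosome 6 from 126764331 to 126764390 for Kcna6, chromosome 11 from 33582521 to 33582580 for Kcnip1, chromosome 1 from 172290879 to 172290938 for Kcnj9 and chromosome 11 from 33918201 to 33918260 for Kcnmb1. Those of Kcna4 and Kcna2 were chromosome 2 from 107148704 to 107148763 and chromosome 3 from 106923737 to 106923796, and that of Kcnmb4 was chromosome 10 from 115925806 to 115925865. No annotation of that build was used here, so the exon that a probe matches is not stated.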

How the data were processed

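The deposited scanner intensities are mean spot and median local background brightness per channel, without normalization per the file headers (Feature Extraction 10.5.1.1). Log10 ratios in those files were made with Agilent's background model and dye normalization, per the file headers. The authors' log2 values, sample over reference, were used as an alternative (slope 1.00 to 1.01 against the values here).

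In R 4.3.3 with limma 3.58.1, spots flagged as non-uniform (2 to 26 per array) were given no value. Background was corrected by normexp (offset 50), followed by loess within arrays, averaging of a probe's repeated spots, removal of probes above background in Cy5 on fewer than 4 arrays (31186 of 41174 probes passed) and the brightest probe per name. Limma compared injured with uninjured arrays, with Benjamini-Hochberg adjustment over 21097 genes. The procedure was tested on simulated data.

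The genes and lists were chosen with earlier results of these data known. Array-by-array values are given for 12 of the 14 largest called changes without overlap and the 4 called rises, other called genes by their log2 fold change, and the largest change not called of a subfamily. Kcna1, Kcnc2, Kcnc4, Kcnma1, Kcnj6, Kcnj10, Kcnk7, Kcnq1, Kcnq3, Kcns2, Kcnip3, Kcnk10, Dpp6 and the marker genes called were named after their values were seen. Some genes were counted with the others but are not reported by name here. Promoters were read with Python 3.11.15 and figures drawn with matplotlib 3.10.9. Alternatives are given in the closing section.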

Additional observations from a re-analysis of the deposited data

Results flagged for a closer look

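Among 56 groups of arrays checked for 1 array that stands far from the others of its group, 2 held such an array, where chance gives about 1 in 20. Kcns3 on injured array 1 was at a log2 ratio of 4.79, above the other injured arrays (4.28 to 4.39). Kcnk16 on injured array 5 was at 0.14, below the other injured arrays (0.37 to 0.44) and below uninjured array 4.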

How the results depend on the processing

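No paired analysis was possible, although injured and uninjured ganglia may share animals, because animals and replicate numbers are not given in the labels. Kcnip1, Kcna4 and Kcnn1 were called lower under all 22 alternatives, and none of the 16 genes given array by array changed sign under any. With slide as a fixed block the counts were 1184 genes in all, 14 potassium channel genes, 14 of them lower and 0 higher, and 0 partner genes, with a potassium channel median of −0.17. A slide as a random block gave a correlation of −0.21 and 44 potassium channel genes called (56.4%, against 35.4% of all genes). Agilent's log ratio called 21 potassium channel genes (26.9%, against 21.3% of all genes), 17 of them lower. Median centring called 2684 genes in all and 4 partner genes, with a median of −0.29, and 63.2% of all called genes were lower against 55.0% with loess. All spots in the background fit gave 2 rises and a median of −0.37, and an offset of 0 a median of −0.30 with 28 calls (35.9%, against 22.0% of all genes). At more than 1.5-fold, 1250 genes in all (5.93%), 21 potassium channel genes (26.9%, 19 lower and 2 higher) and 1 partner gene passed. In the reference channel the count was 18 with an offset of 0, 18 with slide, and between 9 (without uninjured array 3) and 99 (without uninjured array 1) on leaving out 1 array. Leaving out 1 array at a time gave 32 to 41 potassium channel genes called (41% to 52.6%, against 19.3% to 26% of all genes). Beyond the lost calls already given, Kcnip4, Kcnc4, Kcnj12 and Kcnc1 were each called in 1 such fit. Why these counts moved was not tested. Slides limit these data, because a single uninjured array shares a slide with injured ones, and dim probes such as that of Kcnk16 have only a bound.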
